A study of Homo sapiens with 16 samples.

Results

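The response to H11 and to IFNw on optimized receptors was compared in 4 of the 16 libraries of an RNA sequencing series in HEK293 cells, a human embryonic kidney line. These 4 come from cells labelled as carrying optimized receptors that received either H11 or IFNw, with 2 libraries per ligand, and were chosen by those genotype and treatment labels. The remaining groups of 2 are optimized cells that were untreated or received IFNL3, and wild-type-receptor cells under the same 4 treatments. IFNw is interferon omega, a type I interferon, and H11 is labelled as a high-affinity form of IFNL3 (interferon lambda 3, a type III interferon). Per the labels, ligands were used at 100 nM for 15 min. A time label of 24 hr is given too, and its relation to the 15 min is not stated. Which receptor chains were altered and how, and whether the optimized cells are 1 clone, are not given in the labels, and there is no group treated with vehicle. By its title, the series is about the geometry of paired Janus kinases and its effect on expression under type I and III interferons. The comparison here asks whether transcript levels still depend on the ligand when both act on optimized cells.

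Type I interferons bind IFNAR1 and IFNAR2, and type III interferons bind IFNLR1 and IL10RB. Both receptor pairs carry the Janus kinases JAK1 and TYK2, which phosphorylate STAT transcription factors. With IRF9, STAT2 and a partner form the complex ISGF3, which binds the interferon-stimulated response element (ISRE) of antiviral and antigen-presentation genes.

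The promoters of 3 such genes are shown because on wild-type receptors ISG15 and B2M had lower and OAS3 higher levels with H11 than with IFNw, while on optimized receptors none of the 3 was called different. Each run is the 250 bases before the RefSeq start site in GRCh38.p14, on the plus strand, and capitals mark the ISRE core GAAANNGAAA or its reverse complement TTTCNNTTTC, which may overlap. ISG15 lies at chr1:1013247-1013496, B2M at chr15:44711267-44711516 and OAS3 at chr12:112938224-112938473.
ISG15: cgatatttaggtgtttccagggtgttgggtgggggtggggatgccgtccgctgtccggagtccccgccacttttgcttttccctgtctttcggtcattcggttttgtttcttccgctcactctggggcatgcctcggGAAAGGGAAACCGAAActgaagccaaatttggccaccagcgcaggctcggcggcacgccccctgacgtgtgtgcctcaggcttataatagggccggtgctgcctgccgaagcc
B2M: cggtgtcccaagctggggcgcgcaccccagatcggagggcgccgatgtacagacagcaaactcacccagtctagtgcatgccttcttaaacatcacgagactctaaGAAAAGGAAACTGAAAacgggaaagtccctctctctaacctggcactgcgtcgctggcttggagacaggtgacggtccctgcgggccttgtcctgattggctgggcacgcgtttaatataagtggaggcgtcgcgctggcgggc
OAS3: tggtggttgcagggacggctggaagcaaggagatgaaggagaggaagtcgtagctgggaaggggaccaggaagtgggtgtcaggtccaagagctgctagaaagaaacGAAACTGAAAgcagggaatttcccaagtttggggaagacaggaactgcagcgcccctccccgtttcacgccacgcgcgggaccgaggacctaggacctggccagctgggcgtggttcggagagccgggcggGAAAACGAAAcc
Each held 2 cores, whose first bases lay at -113 and -107 from the start site in ISG15, -144 and -138 in B2M and -143 and -12 in OAS3. In windows of 300 bases, the core was in 3.57% of all 35116 RefSeq promoters. It was in a promoter of 31 of the 52 antiviral effector genes matched to that table and of 11 of 18 matched MHC class I presentation genes, against 4.38% of all 27305 genes.

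The 4 libraries held 8519241 to 9822088 reads, within the range of 5331203 to 9822088 over all 16. Replicates are labelled biological, with no word on separate cultures, so p-values measure only the spread between these libraries. Of the markers of other cell types, 4 of 8 for blood cells (PTPRC, CD3E, LYZ and HBB) and 5 of 6 for hepatocytes and keratinocytes (ALB, APOA1, TTR, KRT14 and KRT1) had 0 reads in all 4, a count that allows up to 3 reads. The blood list summed to at most 0.569 CPM. Of 6 fibroblast markers COL1A2, COL3A1, DCN and LUM had 0 reads, and the list summed to 19.5 to 21.2 CPM with H11 and 18.2 to 28.8 with IFNw. On the other side, 6 of 8 HEK293 markers passed the filter on low counts. The neuron list, with RBFOX3 and GRIN1 at 0 reads, summed to 4.55 to 5.002 CPM with H11 and 8.70 to 8.85 with IFNw; its part in any result was not tested. Relative to the mean of all libraries, levels fell with transcript length in the 4 libraries (Spearman's rho across genes -0.397 to -0.428) and in wild-type cells with IFNw (-0.412 and -0.421), but rose with it in wild-type cells with H11 (0.405 and 0.369). Untreated optimized cells lay between (0.144 and 0.0789), and their replicate 2 had the fewest reads of the series. These 2 untreated libraries stood apart from each other (standard deviation of their log2 difference 0.540, against 0.268 to 0.309 in the other groups; summed level of the MHC class I list 1676 and 3083 CPM), and every contrast with untreated cells rests on them. The identifiers of the targets mark them as amplicons, whose lengths are not stated, so levels are compared within a gene and not between genes.

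On optimized receptors, no gene of the interferon response or of any other programme was called different between H11 and IFNw. Most antiviral and MHC class I presentation genes stood above untreated levels with both ligands. The libraries of the ligands did not overlap in 9 of 61 antiviral and 5 of 20 MHC class I genes, B2M among them, beside 28.8% of all genes. ISG15, a ubiquitin-like modifier, read 6759 and 7526 with H11 and 7266 and 7770 with IFNw (CPM, reads scaled to a common library size after adjusting for composition), against 17.5 and 13.0 untreated. IFI27, a mitochondrial protein induced by interferon, read 3180 and 2908 against 3179 and 3278, and B2M, the light chain of MHC class I, 6282 and 6212 against 5975 and 6175. The log2 fold changes of H11 against IFNw were -0.07 ± 0.13 (SE) for ISG15, -0.08 ± 0.15 for IFI27 and 0.04 ± 0.21 for B2M. In bulk RNA, fewer responding cells and less RNA per cell cannot be told apart.

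Of 12704 genes tested by edgeR's quasi-likelihood test, 0 had a Benjamini-Hochberg adjusted p under 0.05 (0% called), and the smallest adjusted p was 0.999. At an unadjusted p under 0.05 there were 279 genes (2.2%), 136 higher and 143 lower with H11. That share lay below the threshold itself, and the median unadjusted p was 0.598. The p-values thus ran high, and the test may miss differences. With a term for the replicate number in the fit, 363 genes had an unadjusted p under 0.05 (edgeR). With only the groups compared in the fit, 246 of 11746 had. The reason for the high p-values was not tested. DESeq2 also called 0, with 158 at an unadjusted p under 0.05. Because a missed threshold does not show that levels are alike, the interval of each difference was used. Of 9911 genes at 5 CPM or more with either ligand, 9367 (94.5%) had a 95% interval that lay within 2-fold in both directions. The other 544 had a median level of 6.38 CPM, with 27 of them at 50 CPM or more, and none had an interval wholly beyond 2-fold. Of 3342 genes at 50 CPM or more, 3315 lay within 2-fold and 3078 within 1.5-fold. The median absolute log2 difference was 0.0948 over genes at 5 CPM or more, 98% differed by at most 1.43-fold, and 6 differed by 2-fold or more. The 4 libraries did not overlap between the ligands in 3657 genes (28.8%).

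**Figure D1:**
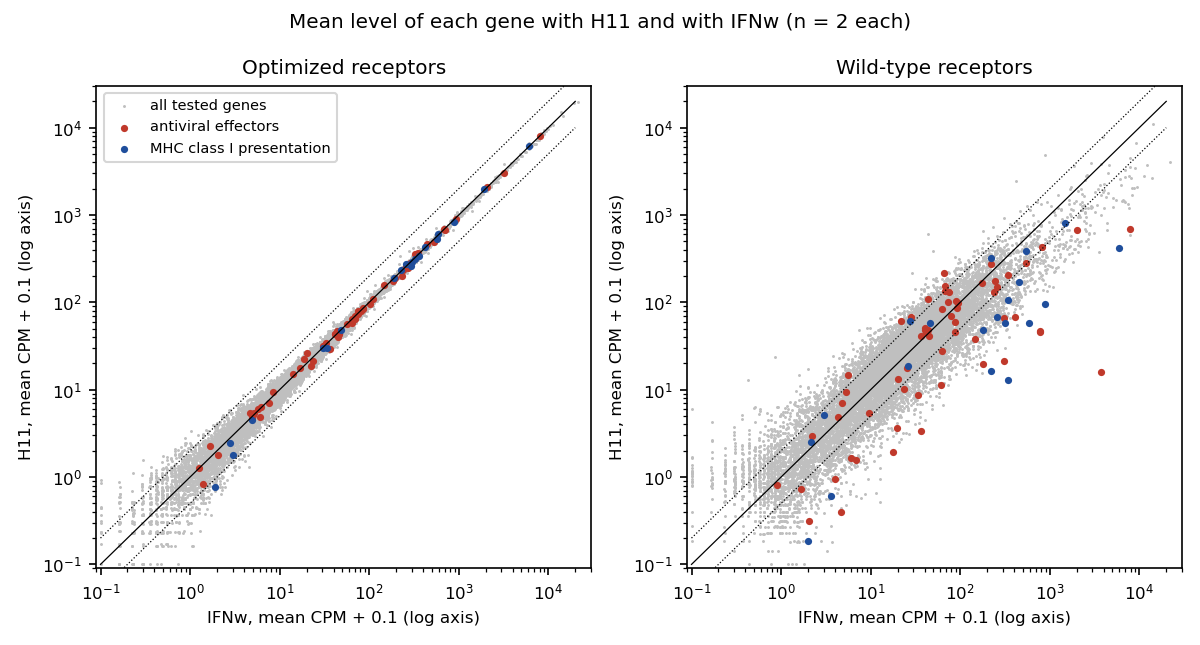
Mean level of each tested gene with IFNw (x axis) and with H11 (y axis), as CPM + 0.1 on log axes, in optimized (left) and wild-type cells (right). Solid lines mark equal levels and dotted lines 2-fold; antiviral effectors (red) and MHC class I presentation genes (blue) follow the line on the left, where 0 genes were called, and many fall under it on the right, where 6632 were.

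The distance between libraries was measured pair by pair. For all pairs, wild-type ones too, the genes were those at 5 CPM or more with H11 or IFNw in optimized cells. The standard deviation across genes of the log2 CPM difference was 0.294 between the H11 replicates and 0.309 between the IFNw replicates. The 4 pairs of an H11 with an IFNw library lay at 0.244 to 0.310, against 0.461 to 0.505 between H11 and IFNL3 on optimized receptors. On wild-type receptors, H11 and IFNw libraries were 0.929 to 0.956 apart. Same-numbered H11 and IFNw libraries were closer (0.244 and 0.271) than those of unlike number (0.300 and 0.310), so these distances also hold what libraries of 1 number share. Chi-square over its degrees of freedom was 3.36 to 6.97 between H11 and IFNw libraries, and 6.18 and 7.57 between replicates.

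**Figure D2:**
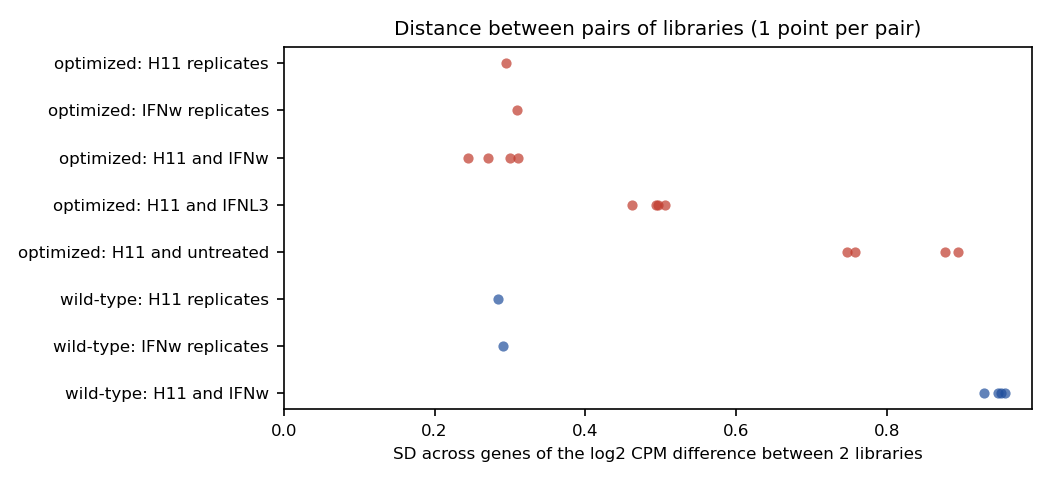
Standard deviation across genes of the log2 CPM difference between 2 libraries, 1 point per pair (red, optimized; blue, wild-type). The genes are those at 5 CPM or more with H11 or IFNw in optimized cells, for wild-type pairs too. The 4 pairs of H11 with IFNw in optimized cells (0.244 to 0.310) sit beside the replicate pairs (0.294 and 0.309), whereas the wild-type pairs lie at 0.929 to 0.956.

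No receptor chain or kinase was called different between the ligands, though 8 of the 9 tested had higher values with H11. IFNAR1 stood at 11 and 13.2 CPM with H11 and 11.8 and 11.5 with IFNw, and IFNAR2 at 39.9 and 32 against 32 and 31.9. For the lambda receptor, IL10RB read 19.6 and 22.9 against 20.8 and 20.7, and IL28RA, the older symbol of IFNLR1, 2.05 and 3.98 against 1.74 and 2.12. The ligands' libraries overlapped in IFNAR1, IFNAR2, IL10RB and IL28RA. The intervals ran from 0.721 to 1.5-fold for IFNAR1, 0.845 to 1.5-fold for IFNAR2 and 0.800 to 1.31-fold for IL10RB, but from 0.783 to 3.04-fold for IL28RA, whose low level leaves a wide interval. The kinase JAK1 read 7.44 and 6.97 CPM with H11 and 7.10 and 7.23 with IFNw, and TYK2 29.4 and 26 against 25.4 and 27.7. JAK1 fell against untreated cells by 0.93 and 0.94 on the log2 scale, calls that were lost without either library of the ligand or untreated replicate 1 (adjusted p 0.0909 to 0.153, edgeR). Over the 9 receptors and kinases tested, 0 were called, the median log2 difference was 0.06 against -0.01 over all genes, and all 7 at 5 CPM or more lay within 2-fold. Whether a target counts endogenous or introduced receptor transcripts is not given in the labels.

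Of 10 STAT and IRF transcription factors tested, 8 rose and 1 fell with each ligand against untreated cells. Over all genes, 17.2% and 17.5% were higher. With transcript length removed the counts were 7 and 1 with each ligand. With only the groups compared in the fit, 7 of 10 rose with H11 and 6 of 9 with IFNw, and 0 fell. Between the ligands, none of the 10 was called different. STAT2 read 83.0 and 83.9 CPM with H11 and 84.2 and 80.9 with IFNw, against 33.7 and 37.3 untreated, and IRF9, its DNA-binding partner, 118 and 119 against 113 and 120, with 3.67 and 4.38 untreated. The intervals were 0.838 to 1.22-fold for STAT2 and 0.851 to 1.22-fold for IRF9. IRF7, an interferon-induced activator of interferon genes, read 315 and 365 CPM with H11 and 239 and 357 with IFNw, a log2 difference of 0.19 ± 0.20. IRF1, an activator of inflammatory and antigen-presentation genes, was at 10.3 and 8.81 against 10.6 and 8.73, and its untreated level of 4.89 and 4.03 lay lower (log2 fold changes of 1.08 with H11 and 1.09 with IFNw). Both contrasts with untreated cells share the untreated libraries. All 9 STAT and IRF genes at 5 CPM or more lay within 2-fold between the ligands, with a median log2 difference of 0.03. Among genes that dampen the pathway, USP18, which removes ISG15 and blocks the type I receptor, read 140 and 166 CPM against 146 and 170. Of the 10 feedback genes tested 0 were called, and 6 of 7 at 5 CPM or more lay within 2-fold. The exception was the phosphatase PTPN1, named after its values were seen.

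Most antiviral effectors rose with both ligands, and none was called different between them. IFI6, an interferon-induced membrane protein, read 8228 and 7811 CPM with H11 and 8270 and 7981 with IFNw, against 45.5 and 54.3 untreated. The RNA-binding protein IFIT1 read 2215 and 2019 against 2190 and 1986, and its relative IFIT3, at 0 reads in untreated optimized cells, 93.8 and 80.2 against 89.7 and 82.3. Against a limit of 3 reads over the untreated group, IFIT3 was at least 452-fold higher with H11. With IFNw it was at least 444.5-fold higher. IFI44, also at 0 reads untreated and at least 1923-fold and 1817-fold higher with the ligands, stood at 402 and 338 CPM with H11 and 381 and 323 with IFNw. In these genes the replicates of 1 ligand were further apart than the ligand means. Of the 2-5A synthetases, which activate an antiviral ribonuclease, OAS1 read 473 and 447 against 457 and 437, OAS2 159 and 154 against 150 and 140, and OAS3 33.9 and 31.1 against 32.4 and 31.7. RSAD2, the antiviral enzyme viperin, read 67.2 and 60.8 CPM with H11 and 69.1 and 69.3 with IFNw. Here and in OAS2 the libraries did not overlap, yet the log2 differences were only -0.11 ± 0.17 and 0.11 ± 0.18.

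IFIT2, a relative of IFIT1, read 23.5 and 13.6 CPM with H11 against 18.9 and 26.3 with IFNw, with an interval of 0.601 to 1.13-fold. MX1, a dynamin-like antiviral GTPase, had 11 and 20 reads in all with H11 and IFNw, too few to bound its difference (0.211 to 1.58-fold). Of 61 antiviral effectors tested, 0 were called between the ligands, 28 had higher and 33 lower values with H11, and the median log2 difference was -0.01. Of the 55 at 5 CPM or more, 54 lay within 2-fold. The exception was SP110, a nuclear body protein, named after its values were seen. Against untreated cells, 52 of the 61 rose and 0 fell with either ligand, beside 17.2% of all genes higher and 15.2% lower with H11 (4116 called, 32.4%) and 17.5% and 15.9% with IFNw (4247 called, 33.4%). With only the groups compared in the fit, 2021 and 2052 genes were called, among them 47 of 58 and 48 of 59 antiviral effectors, all higher. Without untreated replicate 2, 54 of 62 rose with H11, and 52 rose and 1 fell with IFNw. The list was chosen with this response known. With transcript length removed, the counts were again 52 and 0 with each ligand.

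**Figure D3:**
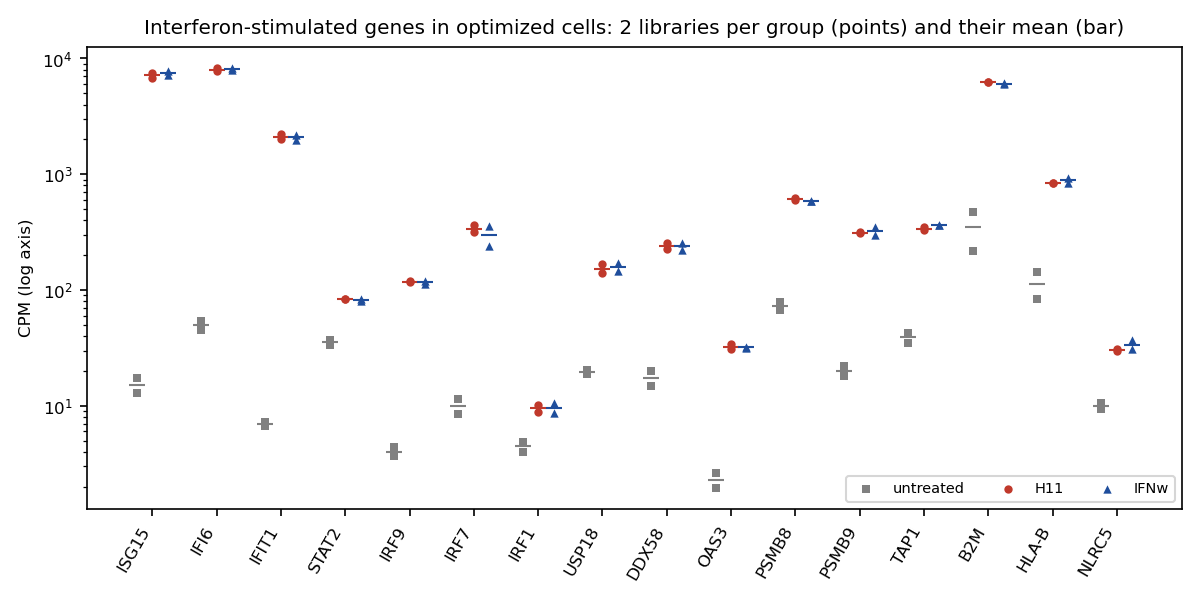
Level in CPM (log axis) of 16 interferon-stimulated genes in optimized cells that were untreated (grey squares), or received H11 (red circles) or IFNw (blue triangles); points are the 2 libraries of a group and bars their mean. For every gene shown the H11 and IFNw libraries lie together and above the untreated ones, as for IRF9 at 118 to 119 and 113 to 120 against 3.67 to 4.38 CPM.

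The cytoplasmic RNA sensors did not separate the ligands. DDX58, which encodes RIG-I, read 255 and 226 CPM with H11 and 256 and 224 with IFNw, against 14.8 and 20.1 untreated. IFIH1, which encodes MDA5, read 48.0 and 42.6 against 43.1 and 43.8. The log2 difference of DDX58 was 0.00 ± 0.14 and that of IFIH1 0.06 ± 0.19. In the list of RNA and DNA sensors, which also holds the adaptor MAVS, all 8 genes at 5 CPM or more lay within 2-fold. So did all 6 genes of ISG15 and its conjugation, and 0 were called in either list.

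MHC class I presentation rose with both the type I ligand and the lambda variant and was not called different between them. The immunoproteasome subunits, which reshape the peptides made for display, read 620 and 604 CPM with H11 and 592 and 589 with IFNw for PSMB8, and 309 and 315 against 297 and 351 for PSMB9. TAP1, a subunit of the peptide transporter, was lower in both H11 libraries, at 347 and 328 against 362 and 362 CPM, a log2 difference of -0.10 ± 0.11. Of the heavy chains, HLA-B read 839 and 841 against 840 and 930, and HLA-C 3.72 and 4.98 against 5.76 and 3.99. The sources used here do not say how reads were divided between these near-identical genes. NLRC5, the transactivator of class I genes, read 29.5 and 30.8 CPM with H11 and 36.7 and 30.7 with IFNw. All 16 of these genes at 5 CPM or more lay within 2-fold, 0 of 20 tested were called, and the median log2 difference was -0.05. Against untreated cells 17 of the 20 rose with H11 and 18 with IFNw (14 with each without untreated replicate 2), beside 17.2% and 17.5% of all genes, a list chosen with this response known.

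Several chemokine and cell death genes had few reads, which left wide intervals. CXCL10, a chemokine that attracts T cells, had 13 reads with H11, 24 with IFNw and 0 untreated. GBP1, a guanylate-binding protein, read 5.13 and 7.25 CPM with H11 and 5.49 and 6.61 with IFNw, with an interval of 0.463 to 2.25-fold. The death ligand TNFSF10 read 6.8 and 9.1 against 4.82 and 6.98, an interval of 0.797 to 2.25-fold. Of 9 chemokine and IRF1-dependent genes tested 0 were called, and of the 3 at 5 CPM or more 1 lay within 2-fold. Of the cell death genes, 5 of 7 did, the exceptions being TNFSF10 and the death receptor FAS, the latter named after its values were seen. A 2-fold difference in GBP1 or TNFSF10 would therefore not be excluded by these intervals.

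No programme outside the pathway held a gene called between the ligands. Of the 28 tested genes of the ATF4 amino-acid response, 24 fell with either ligand against untreated cells (25 and 24 with transcript length removed), beside 15.2% and 15.9% of all genes, and between the ligands 0 were called, with a median log2 difference of -0.01. All 22 of them at 5 CPM or more lay within 2-fold. Of 23 cholesterol synthesis genes, 17 rose and 1 fell with either ligand (16 and 1 with transcript length removed; 13 and 1 with H11 and 11 and 0 with IFNw with only the groups compared in the fit), beside 17.2% and 17.5% of all genes higher. Between the ligands 0 were called, and all 22 at 5 CPM or more lay within 2-fold. The same held between the ligands for all 25 DNA replication genes, 23 of 23 mitosis genes, 60 of 60 ribosomal protein genes and 44 of 44 respiratory chain genes at that level. Ribosomal protein genes, many of which have near-identical copies, had lower values with H11 in 48 of 62, at a median of -0.05 against -0.01 over all genes. So had 34 of 47 respiratory chain genes and 16 of 20 histone genes, while 9 of 11 TGF-beta and YAP targets had higher values. Genes of 1 list are not replicates. Immediate early genes, which respond first to growth signals, had 6 of 8 within 2-fold and a median of 0.14 (the exceptions, named after their values were seen, were FOSL1 and ATF3). Targets of TGF-beta and YAP signalling had 8 of 9 and 0.19, with CTGF the exception. Over the 30 lists, 0 members were called between the ligands.

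**Figure D4:**
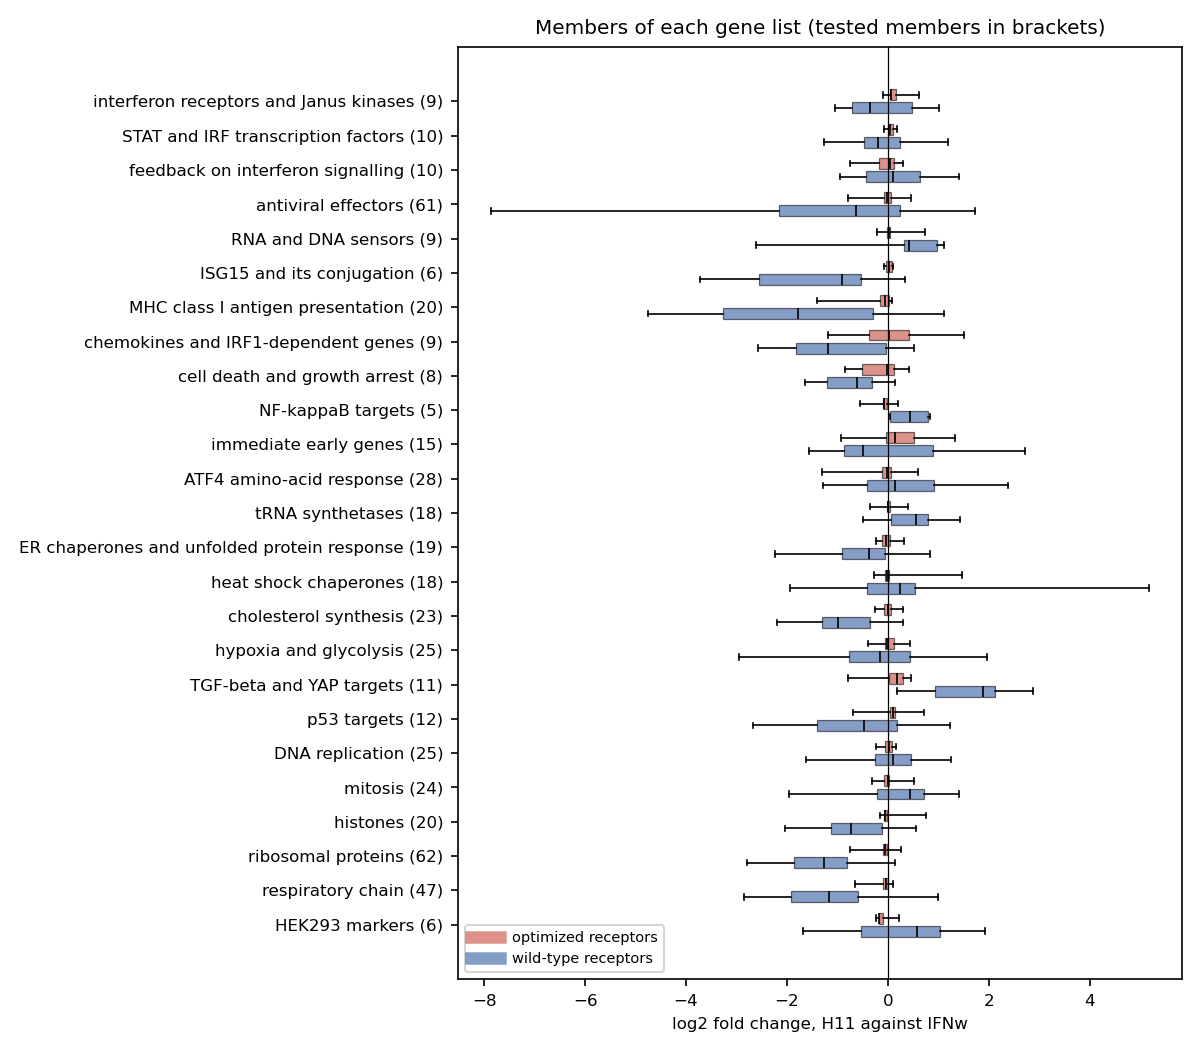
Log2 fold change of H11 against IFNw (x axis) for the tested members of each gene list with at least 5, in optimized (red) and wild-type cells (blue); boxes span the quartiles, lines mark medians and whiskers reach the extremes. The optimized boxes sit at 0 (median -0.01 for antiviral effectors and -0.05 for MHC class I presentation), while the wild-type boxes spread to both sides (medians -0.63 and -1.78).

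On wild-type receptors the same ligand pair gave very different levels. ISG15 read 544 and 627 CPM with H11 and 7706 and 7857 with IFNw, IFI27 13.5 and 18.4 against 4200 and 3263, and B2M 415 and 426 against 5908 and 6107. In these 3 genes both H11 libraries lay far below both IFNw libraries. In the other direction, IFIT2 read 60.1 and 62.0 with H11 against 21.4 and 21.8 with IFNw, and OAS3 115 and 102 against 43.4 and 44.5. By edgeR 6632 of 12704 genes were called (52.2%), 3373 higher with H11 (26.6%) and 3259 lower (25.7%), and 3293 of them exceeded 2-fold. Of 10219 genes at 5 CPM or more in wild-type cells, 4758 (46.6%) had an interval within 2-fold. Of 61 antiviral effectors 10 were higher and 32 lower with H11, of 20 MHC class I genes 2 and 13, and of 62 ribosomal protein genes 0 and 56. The opposite length trends of the wild-type H11 and IFNw libraries moved with these results. Wild-type IFNL3 libraries had the trend of the H11 ones (rho 0.381 in both), and the labels name 2 library kits without saying which library was made with which. With transcript length removed the counts were 5688 genes in all, 2879 higher and 2809 lower. Among them were 9 and 29 antiviral effectors, 2 and 13 MHC class I genes and 5 and 44 ribosomal protein genes.

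The dependence of the ligand difference on the receptor genotype was tested as the H11 to IFNw difference in optimized cells minus that in wild-type cells. It was called in 4530 genes (35.7%), 2417 with a higher value in optimized cells (19%) and 2113 with a lower one (16.6%), and 2958 of these exceeded 2-fold. Sizes in this and the next paragraph are without the length offset, so they hold the opposite length trends of the wild-type libraries. With transcript length removed 3515 genes were called. Of the named genes, 2 then lost their call and 62 kept their status, called or not. Among the genes with higher values, IFI27 differed most, by 7.78 ± 0.25 on the log2 scale (adjusted p = 1.48e-12, edgeR). PSMB9 followed at 4.70 ± 0.24. B2M stood at 3.88 ± 0.31, ISG15 at 3.66 ± 0.18 and IFI6 at 3.5 ± 0.16. The membrane-bound restriction factors IFITM3 and IFITM1, which are close paralogs, differed by 4.11 ± 0.22 and 4.03 ± 0.19. IFITM3 read 688 and 681 CPM with H11 against 641 and 718 with IFNw on optimized receptors, and 41.2 and 50.2 against 788 and 782 on wild-type receptors. Some genes outside the interferon lists stood with them. SULT2B1, a sterol sulfotransferase, read 10.6 and 9.81 against 11.5 and 13.5 CPM on optimized and 0.261 and 0.579 against 14.8 and 10.8 on wild-type receptors, a difference of 4.58 ± 0.45.

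A smaller set differed in the other direction, being higher with H11 than with IFNw on wild-type receptors and not called on optimized ones. IFIT2 differed by -1.78 ± 0.30, OAS3 by -1.28 ± 0.22, NLRC5 by -1.28 ± 0.24, IRF1 by -1.20 ± 0.28 and DDX58 by -0.98 ± 0.19. The nuclear noncoding RNA NEAT1 read 50 and 56.2 against 43.1 and 47.6 CPM on optimized, and 570 and 632 against 42.0 and 46.2 on wild-type receptors, a difference of -3.54 ± 0.24. PI15, a secreted peptidase inhibitor family member, read 0.513 and 0.284 against 1.07 and 0.873 CPM on optimized receptors. On wild-type receptors it read 21 and 25.7 against 0.835 and 0.657, and the genotype difference was -6.18 ± 0.65. All its levels but those of wild-type H11 rest on few reads, so that size is uncertain. IL7R, the interleukin-7 receptor chain, had 0 reads with H11 and 2 with IFNw on optimized receptors. IRF9 and IFIT3 were not called for a difference between the genotypes (0.12 ± 0.17 and 0.21 ± 0.18).

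By lists, 32 antiviral effectors had a higher and 9 a lower genotype difference of 61 tested (median 0.64), or 27 and 7 with transcript length removed (median 0.33). Over all 12704 genes tested, 19% had a higher and 16.6% a lower one, or 1887 and 1628 genes with length removed. MHC class I genes stood at 12 and 2 of 20 (median 1.66), or 13 and 1 (median 1.22), beside a median of -0.04 over all genes. Ribosomal protein genes stood at 51 and 0 of 62, or 38 and 2. Targets of TGF-beta and YAP stood at 0 and 7 of 11, with or without length removed. The call of STAT2 (-0.58 ± 0.18, adjusted p = 0.0172) was lost without either H11 library or IFNw replicate 1 of optimized cells, or without replicate 1 of either wild-type group (adjusted p 0.0537 to 0.0795, edgeR). USP18 (0.60 ± 0.19, adjusted p = 0.0192) lost its call without H11 replicate 2 or IFNw replicate 1 of optimized cells, H11 replicate 1 or IFNw replicate 2 of wild-type cells (adjusted p 0.0761 to 0.0966), and was 0.19 with length removed. IL10RB was at 1.07 ± 0.24, or 0.66 and no longer called with length removed.

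**Figure D5:**
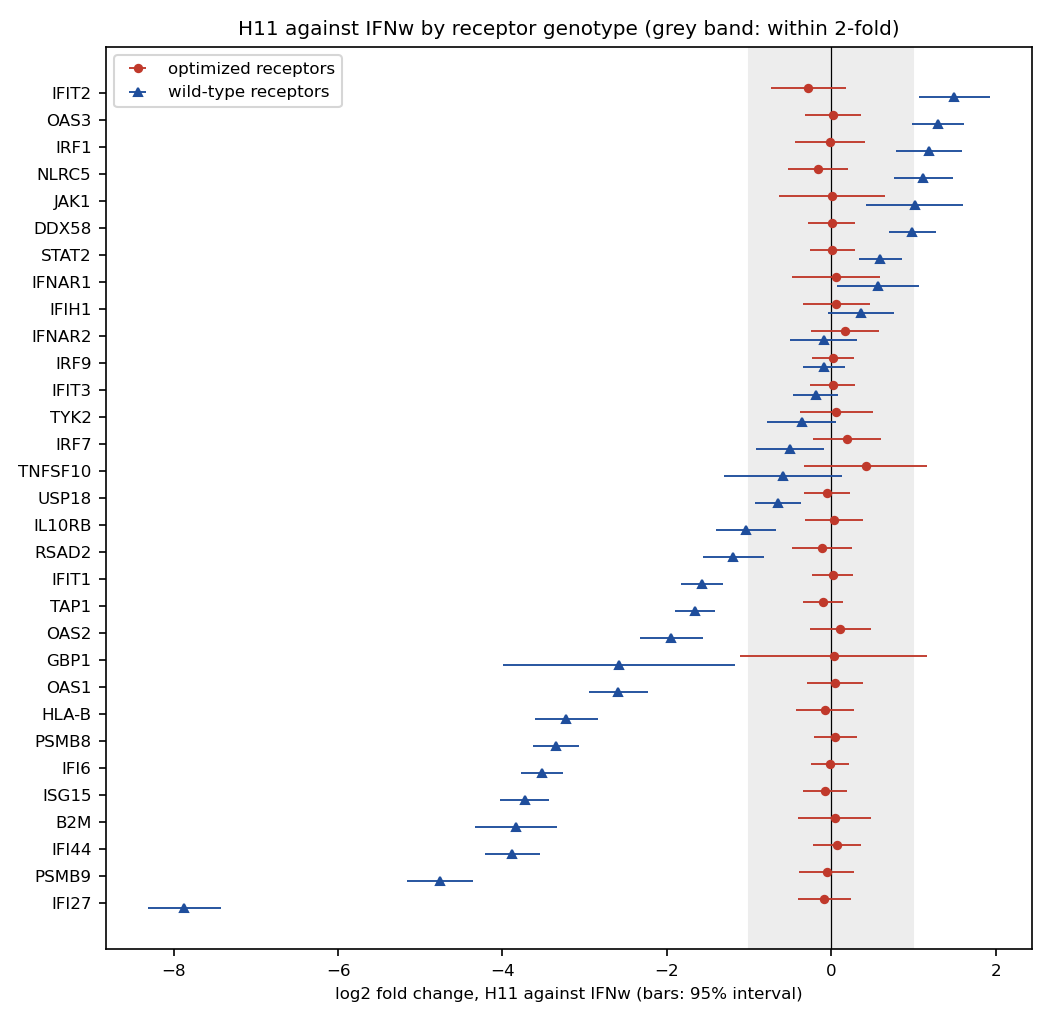
Log2 fold change of H11 against IFNw with its 95% interval for 31 panel genes at 5 CPM or more, in optimized (red circles) and wild-type cells (blue triangles); the grey band marks 2-fold. Red points gather at 0 with 29 of 31 intervals inside the band, and blue points run from IFIT2 at 1.5 to IFI27 at -7.87.

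The genes picked for large differences between the ligands on optimized receptors were all of low level, and none passed the adjustment. They were picked by size after their values were seen. The choice was among genes at 5 CPM or more whose libraries did not overlap and whose unadjusted p was under 0.05 (edgeR). HMGN3, a nucleosome-binding protein, read 8.85 and 8.25 CPM with H11 and 3.75 and 3.86 with IFNw, a log2 difference of 1.16 ± 0.32. WNT11, a secreted WNT ligand, read 5.77 and 5.83 against 1.74 and 3.49, and the kinase MAST3 5.00 and 6.40 against 2.54 and 2.87. VPS13B, a lipid transfer protein, read 3.08 and 2.70 with H11 and 6.83 and 6.11 with IFNw, at -1.15 ± 0.28 and the smallest unadjusted p of all genes (0.000602, edgeR; adjusted p = 0.999). The zinc finger gene ZNF77 read 3.33 and 3.98 against 9.91 and 5.98. The panel genes of the interferon pathway, differed by at most 0.82 on the log2 scale, 23 higher and 14 lower with H11.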

How the data were processed

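Per the labels' protocols, kit-purified total RNA was made into Ion Torrent libraries. The authors deposited, for every library, whole-number counts of reads per target that were not normalized. The submitters' processing notes name hg19. The sources used here name no aligner or counter and give neither strand use nor target positions. No collapsing by molecule is recorded. Of 20812 targets, 10 spike-in controls were left out. The test was that of edgeR 4.0.16 under R 4.3.3 (filterByExpr, TMM, quasi-likelihood test, Benjamini-Hochberg adjusted p under 0.05), all 16 libraries in one fit with a coefficient per group, common dispersion 0.0176. Depth was 5331203 to 9822088 reads per library; intervals are 95% and limits from 0 reads cover counting error only. Alternatives were DESeq2 1.42.0, its size factors, no filter, a replicate block, fewer groups, leaving out each library, and a length offset (per library, a spline of log transcript length with 5 degrees of freedom; 95.5% of tested genes had a length). The test was checked on simulated counts.

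Of 588 memberships in 30 gene lists, 587 matched a target. The comparison, the lists and a panel of 37 pathway genes given by level were chosen with earlier results of these data known. Other genes were to be named by size: up to 10 per direction among called genes at 5 CPM or more (for H11 against IFNw, with libraries that do not overlap) and up to 5 called members of each list. Promoters come from RefSeq (GRCh38.p14), matched by gene ID or else by symbol for 29 of the 37 panel genes, and are not in the build of the counts. Figures were drawn with matplotlib 3.10.9. Some of the named genes are not reported here.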

Additional observations from a re-analysis of the deposited data

Results flagged for a closer look

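The difference between H11 and IFNw itself differed between optimized and wild-type receptors in 4530 genes by edgeR's test of that difference (adjusted p under 0.05). The values below are that difference on the log2 scale, optimized minus wild-type, for the named genes that passed it and had more than 3 reads in each of the 4 groups. Signalling genes were IL10RB (1.07), STAT2 (-0.58), IRF1 (-1.20) and USP18 (0.60). Antiviral genes with higher values were IFI27 (7.78), IFITM3 (4.11), IFITM1 (4.03), IFI44 (3.95), ISG15 (3.66), IFI6 (3.5), OAS1 (2.63), OAS2 (2.05), IFIT1 (1.59) and RSAD2 (1.08). Those with lower values were IFIT2 (-1.78), OAS3 (-1.28) and the sensor DDX58 (-0.98). Antigen-presentation genes were PSMB9 (4.70), B2M (3.88), PSMB8 (3.40), HLA-B (3.15), HLA-C (2.57), TAP1 (1.56) and NLRC5 (-1.28), with GBP1 at 2.61. HLA-C lost its call without IFNw replicate 1 of wild-type cells (1.88). GBP1 lost its call without any 1 of H11 replicate 2, IFNw replicate 1 or IFNw replicate 2 of optimized cells (2.36, 2.50 and 2.78), or of H11 replicate 1 or IFNw replicate 1 of wild-type cells (2.01 and 2.26).

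Other genes with higher values were SULT2B1 (4.58), PRRX2 (4.08), OMG (4.07), HIST1H3C (3.94) and CARD16 (3.91). Other genes with lower values were PI15 (-6.18), POU5F1P4 (-3.72), ARGFXP2 (-3.71), GPR21 (-3.60), OSGIN1 (-3.59), NEAT1 (-3.54) and ETV5 (-3.45). Of these, GPR21 and OSGIN1 lost their calls without IFNw replicate 1 (-2.56) and without IFNw replicate 2 (-2.89) of optimized cells. The wild-type H11 libraries rose with transcript length (rho 0.405 and 0.369) where the others compared fell with it. Its part in single values was tested only by the length offset, under which the count was 3515.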

How the results depend on the processing

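The count of genes called between H11 and IFNw on optimized receptors was 0 under every alternative run and without any 1 of the 4 libraries. The smallest adjusted p was 0.183, without IFNw replicate 1. Genes within 2-fold numbered 9097 to 9576 under the alternatives and 8406 to 8560 without 1 of the libraries, against 9367. The replicate block gave 0 calls, 9509 genes within 2-fold, 7206 calls on wild-type receptors and 5187 for the genotype difference. Same-numbered libraries deviated together in 27 of 28 pairs of groups (correlation of deviations over 0.1; lowest 0.0846; H11 and IFNw 0.154). The numbers were not taken as pairs, since 1 pair of groups lay under 0.1 and the labels name no shared batch. That pair, untreated optimized cells with wild-type IFNw cells, is not part of the comparison of H11 with IFNw. The main fit thus leaves in its spread what same-numbered libraries share, and a shared batch was not tested. Without 1 library, wild-type calls numbered 5274 to 5522 and genotype differences 3668 to 3872. When only the groups compared were fitted, calls against untreated optimized cells fell to 2021 with H11 and 2052 with IFNw, from 4116 and 4247; such a fit holds 4 libraries. They were 3594 and 3602 without untreated replicate 2, and 2827 and 2982 at the lowest, without replicate 1 of H11 and of IFNw. On wild-type receptors, 5 of the named genes lost their call with the length offset, 1 gained a call without a change of sign, and 57 kept their status. IRF9 turned from -0.09 to 0.45 there with the length offset and was then called. The cause was not tested. Of the 544 genes not bounded within 2-fold, 27 stood at 50 CPM or more.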
